A study of Mus musculus with 6 samples.

Results

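The genes described here move calcium across the membranes of the endoplasmic reticulum (ER) and the Golgi: the ER pump gene Atp2a2, its relative Atp2a3, the Golgi pump gene Atp2c1, the release channel genes Itpr1, Itpr2, Itpr3 and Ryr2, and Stim1 and Orai1 of store-operated entry. They were chosen by function around Atp2a2, which was itself selected on its lower value in hIAPP_Tg islets in the comparison used below. Values of that comparison are therefore given for them as a description; how many passed the threshold of the fit over all probe sets is stated once, and nothing is read from it. All probe sets annotated to exactly 1 of the 9 symbols were taken, which gave 26 of the 45037 probe sets tested, from 8 of 18193 named genes. Itpr1 is not analysed here.

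Islets were isolated from 6 mice aged 12 weeks (the design text gives 10 to 12 weeks), 3 of them wild type (replicates 1 to 3) and 3 hIAPP_Tg (replicates 4 to 6), with 1 array per mouse. Both genotypes are labelled as FVB/N-Tg(Ins2-IAPP)RFHSoel/J mice, were fed standard chow, and received no other agent per the labels. By that name the transgene, human IAPP (islet amyloid polypeptide), is driven by an Ins2 promoter and so is made in beta cells, while the RNA came from whole islets. The values are log2 expression values from Affymetrix arrays, normalized by the authors with RMA (a method that corrects background, sets all arrays to 1 distribution and summarises the probes of a probe set). Every difference below is hIAPP_Tg minus wild type on the log2 scale, with its standard error (SE) from limma, and n = 3 mice per genotype.

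Cytosolic calcium is kept low in a resting cell, and the ER holds the main releasable store. SERCA pumps fill that store at the cost of ATP, inositol trisphosphate (IP3) receptors and ryanodine receptors empty it, and STIM proteins sense its depletion and open ORAI channels in the plasma membrane. In beta cells the store shapes the calcium signals that drive insulin secretion, and the folding enzymes of the ER need its calcium to work.

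Islet identity was clear on every array. Ins2, the insulin gene, stood at 15.1 on all 6, the top of the scale, and the glucagon gene Gcg at 14.7 to 14.8. The mean over 10 measured beta-cell markers ranged from 12.33 to 12.44 in wild type and from 12.11 to 12.32 in hIAPP_Tg, just without overlap. Of these 10, 7 had a lower mean in hIAPP_Tg, 2 a higher and 1 an equal one. The mean over 3 alpha-cell markers (2 lower, 1 higher) was 12.07 to 12.1 and 11.93 to 12.07, and that of 5 delta- and PP-cell markers 12.42 to 12.44 and 12.36 to 12.44.

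All 6 probe sets of Atp2a2 had a lower mean in hIAPP_Tg islets, by 0.20 to 0.70 on the log2 scale. Atp2a2 encodes SERCA2, the pump that returns cytosolic calcium to the ER in most cell types. On 4 of the 6 probe sets every hIAPP_Tg array lay below every wild-type array. Averaged over the 6, the arrays read 10.97, 11.05 and 10.88 in wild type and 10.6, 10.45 and 10.52 in hIAPP_Tg, a difference of -0.44 (10.97 ± 0.083 against 10.52 ± 0.075, SD, n = 3 each).

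The widest gaps were on the 3 dimmer Atp2a2 probe sets, whose means over all arrays were still above the 75th percentile of all probe sets (7.47). Probe set 1437797_at read 10.5, 10.5 and 10.4 in wild type and 9.8, 9.7 and 9.8 in hIAPP_Tg. It differed by -0.70 (SE 0.063), which is 38.4% lower on the linear scale. The 2 groups were each within 0.1 and stood well apart. Probe set 1443551_at read 8.0, 8.4 and 8.0 against 7.4, 7.5 and 7.4, also a difference of -0.70 (SE 0.12), with wild-type replicate 2 highest of all. Probe set 1427251_at read 9.9, 9.8 and 9.6 against 9.2, 9.3 and 9.4, a difference of -0.47 (SE 0.098), or 27.6% lower. On these 3 dimmer probe sets the 3 hIAPP_Tg mice were alike, with per-array means of 8.8, 8.83 and 8.87 against 9.33 to 9.57 in wild type.

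On the 3 brighter probe sets the gap was narrower, and hIAPP_Tg replicate 4 had the highest value of its group on each. The brightest, 1427250_at, read 13.2, 13.3 and 13.1 in wild type and 13.1, 12.9 and 13.0 in hIAPP_Tg, so the genotypes touched at 13.1 (difference -0.20, SE 0.082). Probe set 1416551_at was at 12.6 on all 3 wild-type arrays and at 12.6, 12.2 and 12.3 on the hIAPP_Tg arrays (difference -0.23, SE 0.11). Here replicate 4 had the wild-type value. On 1452363_a_at the wild-type arrays read 11.6, 11.7 and 11.6 and the hIAPP_Tg arrays 11.5, 11.1 and 11.2 (difference -0.37, SE 0.11), without overlap but with replicate 4 again nearest to wild type. Without hIAPP_Tg replicate 4 the differences of these 3 probe sets were -0.25, -0.35 and -0.48.

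The mean difference was -0.27 over the 3 brighter and -0.62 over the 3 dimmer Atp2a2 probe sets. Array values near the top of the scale can be compressed, and 1427250_at lay above 99.8% of all probe sets. Which stretch or splice form of the Atp2a2 transcript (SERCA2a and SERCA2b differ at their C-terminal end) each probe set reads is not stated by any source at hand. The part of either in the difference between probe sets was not tested. Over the 6 arrays the other 5 probe sets had a Pearson r of 0.76 to 0.93 with 1427250_at. This is a description over arrays that share the genotype difference.

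**Figure D1:**
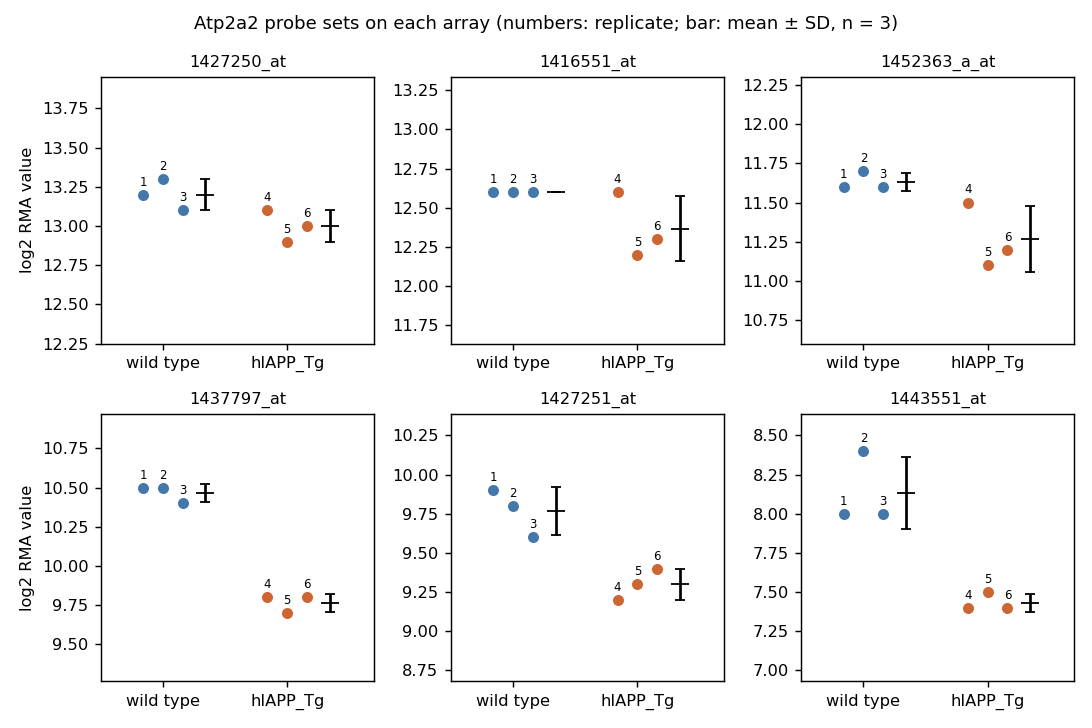
Log2 RMA value (vertical axis, the same span in each panel) of the 6 Atp2a2 probe sets on each array, ordered from the brightest to the dimmest, with wild-type arrays in blue, hIAPP_Tg arrays in orange, the replicate number above each point and the mean ± SD (n = 3) as a black bar. In the lower row the hIAPP_Tg arrays all lie below the wild-type arrays; in the upper row replicate 4 lies at or near the wild-type values.

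Markers of other cells moved on the same arrays. The mean over 19 measured acinar (digestive enzyme) markers read 10.27, 11.63 and 12.05 in wild type and 11.5, 9.01 and 10.47 in hIAPP_Tg. The genotypes overlapped, although 19 of 19 markers had a lower mean in hIAPP_Tg. On the 3 hIAPP_Tg arrays the order of the acinar mean, replicate 4 above 6 above 5, was also that of the 3 brighter Atp2a2 probe sets. On the wild-type arrays the acinar mean ran in the order 3, 2, 1, and the mean of the 3 brighter Atp2a2 probe sets in the order 2, 1, 3 (12.53, 12.47 and 12.43). With the acinar mean as a covariate the Atp2a2 difference over its 6 probe sets was -0.41. On the 3 brighter probe sets, from the brightest down, it was -0.16, -0.14 and -0.26, against -0.20, -0.23 and -0.37 without the covariate. On the 3 dimmer ones it was -0.69, -0.54 and -0.70, against -0.70, -0.47 and -0.70. Beyond these values the part of the acinar signal was not tested.

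For 17 macrophage markers the mean lay between 7.09 and 7.25 in wild type and between 8.21 and 8.36 in hIAPP_Tg, and 16 of 17 had a higher mean. This shift runs with genotype on every array, and its part in the Atp2a2 values was not tested; nor was that of the beta-cell marker mean, which differed by -0.14. Means of the other 5 marker lists (duct, endothelial and mural, stellate, Schwann, lymphocyte) differed by -0.25 to 0.088. Such means can hide opposite moves: of 12 endothelial and mural markers 5 were higher, 4 lower and 3 equal. The stellate mean was 9.24 on wild-type replicate 1, against 8.34 and 8.39 on replicates 2 and 3. In whole islets, fewer cells that carry a transcript and less of it per cell cannot be told apart.

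**Figure D2:**
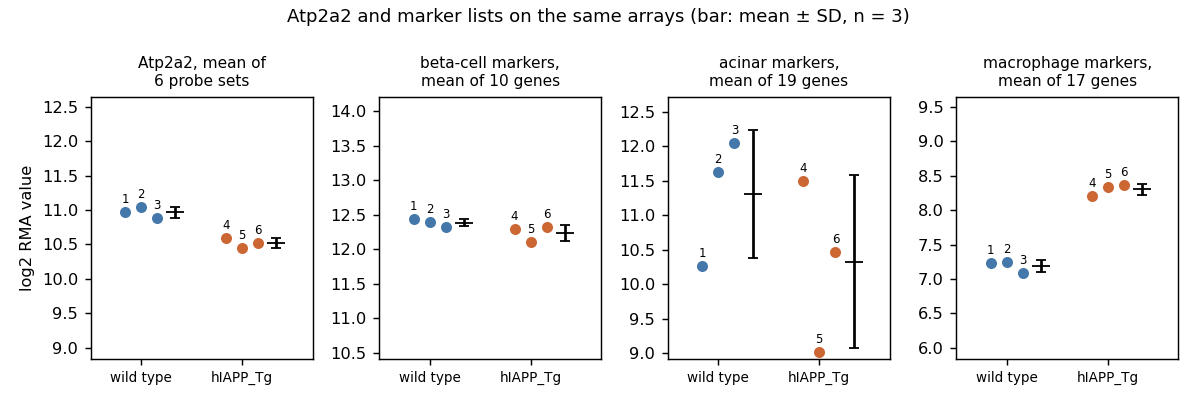
Log2 RMA value per array (vertical axes of equal span) of Atp2a2 averaged over its 6 probe sets and of the mean over beta-cell, acinar and macrophage marker genes, with wild type in blue, hIAPP_Tg in orange, replicate numbers above the points and the mean ± SD (n = 3) as a black bar. Atp2a2 separates the genotypes by 0.44 downward and the macrophage markers by 1.11 upward, while the acinar markers range from 9.01 to 12.05 and overlap.

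Atp2a3, which encodes SERCA3, a SERCA form that beta cells and blood cells make beside SERCA2, overlapped between genotypes on both probe sets. The brighter, 1421129_a_at, read 11.0, 11.1 and 10.9 in wild type and 10.9, 11.0 and 10.9 in hIAPP_Tg (difference -0.067, SE 0.073). The other, 1450124_a_at, read 8.1, 8.0 and 8.1 against 8.0, 7.8 and 7.9 (difference -0.17, SE 0.073) and met at 8.0. The hIAPP_Tg arrays were thus low or level. At their SE and in steps of 0.1, the -0.17 of 1450124_a_at cannot be told from the -0.20 (SE 0.082) of Atp2a2 1427250_at.

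Atp2c1, the gene of the secretory pathway pump SPCA1, which loads the Golgi with calcium and manganese, had 5 probe sets, all overlapping. The 2 brightest read 10.5, 10.6 and 10.5 against 10.4, 10.6 and 10.4 (1437738_at, difference -0.067, SE 0.078), and 9.4, 9.5 and 9.5 against 9.2, 9.5 and 9.3 (1434386_at, difference -0.13, SE 0.090). On both, hIAPP_Tg replicate 5 matched wild type and replicates 4 and 6 were lower. The third, 1431196_at, ran from 6.4 to 6.9 in wild type and from 6.4 to 6.8 in hIAPP_Tg. Of the 2 dimmest, at 3.95 and 3.58 over all arrays and below the 25th percentile of all probe sets (4.43), one differed by -0.033 and the other by 0.10, and neither is known to be above background.

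Among the release channels no probe set separated the genotypes. Itpr3, an IP3 receptor gene of many secretory cells, read 7.2, 7.5 and 7.4 in wild type and 7.3, 7.5 and 7.4 in hIAPP_Tg on its only probe set (difference 0.033, SE 0.098). Itpr2, the gene of another IP3 receptor, had 6 probe sets with differences of -0.10 to 0.23. The brightest, 1427287_s_at, was at 7.0 on all wild-type arrays and at 7.0, 7.3 and 7.1 on the hIAPP_Tg arrays (difference 0.13, SE 0.086), while the next, 1427693_at, leaned the other way, at 6.4, 6.5 and 6.5 against 6.5, 6.3 and 6.3 (difference -0.10, SE 0.078). The largest of the 6, 0.23 (SE 0.12), was on 1444418_at, at 3.9, 4.1 and 4.2 against 4.2, 4.5 and 4.2. That probe set lay below the 25th percentile.

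Ryr2, the ryanodine receptor gene best known from heart muscle and also studied in beta cells, was near the floor of the array on both probe sets. One read 4.3, 4.4 and 4.4 against 4.4, 4.2 and 4.6 (difference 0.033, SE 0.11), the other 3.9 on each wild-type array against 4.0, 3.7 and 4.0 (difference 0). At these values a difference between genotypes may not be visible, and whether the transcript was above background is not known. The related Ryr1 and Ryr3, from the pathway list below, were at 4.8 to 5.1 and 4.7 to 4.9.

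Stim1, the ER calcium sensor gene, was slightly higher on both probe sets, with overlap. Probe set 1436945_x_at read 8.2, 7.9 and 8.2 in wild type and 8.2, 8.3 and 8.2 in hIAPP_Tg (difference 0.13, SE 0.098), and 1448320_at read 8.1, 8.0 and 8.0 against 8.1, 8.2 and 8.1 (difference 0.10, SE 0.063). Orai1, the gene of the channel that STIM1 opens, differed in opposite directions on its 2 probe sets. The brighter read 5.8 on all wild-type arrays against 5.6, 5.7 and 5.8 (difference -0.10, SE 0.068), and the dimmer 4.5, 4.7 and 4.6 against 4.8, 4.6 and 4.7 (difference 0.10, SE 0.082).

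Over the 26 probe sets, 15 lay below 0, 9 above and 2 at 0, with a median of -0.067; over all 45037 the median was 0. Without Atp2a2 the 20 others were split 9 below, 9 above and 2 at 0, with a median of 0 and a range of -0.17 to 0.23. In the limma fit with Benjamini-Hochberg adjustment over all probe sets, 0 of the 26 passed an adjusted p of 0.05, against 0.0289% of all probe sets; 5 had an unadjusted p under 0.05, all of Atp2a2 and all lower. One of these, 1437797_at, did pass under 5 of the 16 alternative settings. The genotypes did not overlap, with hIAPP_Tg lower, for 4 of the 26, all of Atp2a2, against 3.22% of all probe sets, and with hIAPP_Tg higher for 0, against 3.44%. Since Atp2a2 was selected on this comparison, nothing is read from these counts.

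**Figure D3:**
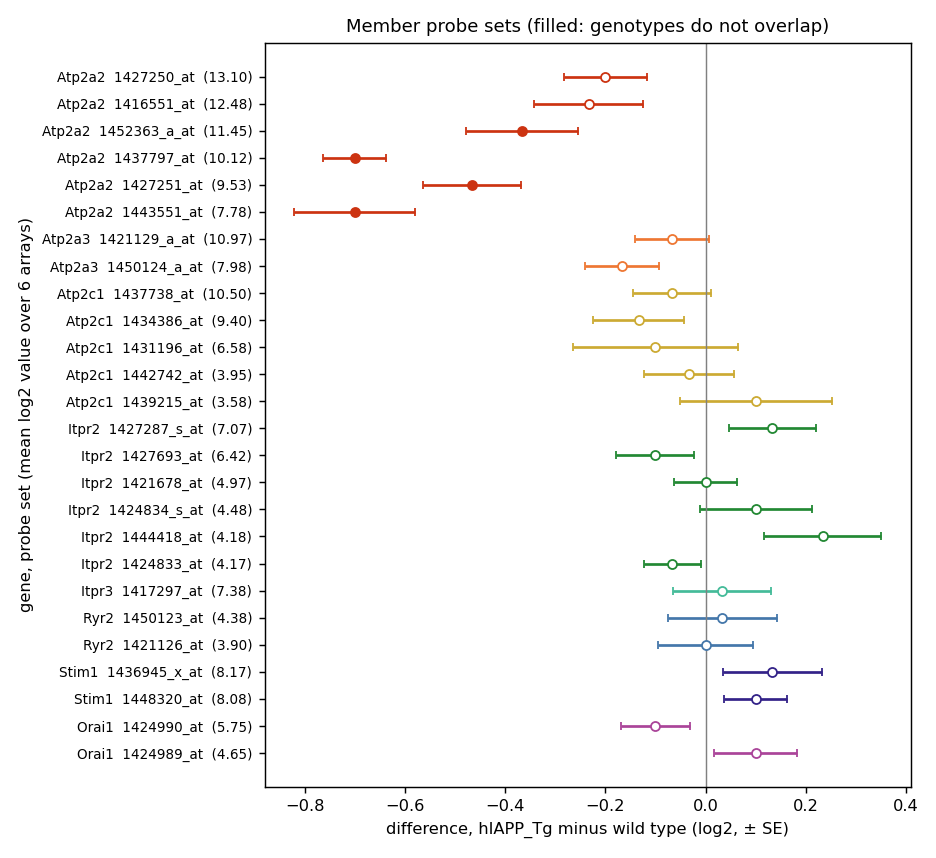
Difference between genotypes (horizontal axis, log2, hIAPP_Tg minus wild type, ± SE from limma, n = 3 each) of the 26 probe sets, coloured by gene, with the mean log2 value over 6 arrays in brackets; filled points mark probe sets whose genotypes do not overlap. The 4 filled points all belong to Atp2a2, and the 20 probe sets of the other genes lie between -0.17 and 0.23.

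The genes whose pattern over the 6 arrays was most like that of Atp2a2 (1427250_at) were found by Pearson r among 6321 probe sets of other named genes that lay above the median and ranged by at least 0.5. They were Inpp5e (r = 0.98), Ttc14 (0.97), Fryl (0.97), Aig1 (0.97) and Lrrc1 (0.96). Inpp5e, for example, read 7.4, 7.6 and 7.2 in wild type and 7.3, 7.0 and 7.1 in hIAPP_Tg, and Lrrc1 7.4, 7.4 and 7.2 against 7.1, 6.7 and 6.9. The reference probe set spans only 0.4 over the arrays in steps of 0.1, so this order is a description of 6 points. The other 5 Atp2a2 probe sets had a lower r with it (0.76 to 0.93). The genes named were picked as the highest among 6321, so their r cannot be weighed against these. The order was taken on this probe set alone and was not looked at on the other 5. None of the 5 genes named is on a calcium list.

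The wider calcium machinery was followed on 8 lists with 146 genes, of which 138 were measured, each through its brightest probe set. None of the 138 passed an adjusted p of 0.05 in limma (smallest 0.471), against 0.044% of all genes. At an unadjusted p under 0.05 in limma there were 11 higher and 2 lower of the 138. Among all 18193 genes there were 914 higher and 629 lower, or 8.48% in either direction. Of the 138, 87 lay above 0, 41 below and 10 at 0, with a median of 0.067. Among all 18193 genes 8743 lay above and 7354 below, with a median of 0. The lists are bright, as 112 of the 138 lay at or above the median of all probe sets. Quantile normalization took Saraf from 0.17 to 0.12 and Mcur1 from 0.17 to 0.12, and the dimmer Atf3 from 0.33 to 0.34. The part of brightness in the lean of the lists was not tested. The genotypes did not overlap for 11 with hIAPP_Tg higher and 2 with hIAPP_Tg lower, against 4.48% and 3.22% of all genes. The 138 ranged from -0.30 to 0.37, and Atp2a2, read through its brightest probe set in the same way, lay inside that range at -0.20.

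Proteins that act on SERCA pumps or hold calcium in the ER showed no common shift (21 measured, 11 above 0 and 10 below, median 0.033, none past the threshold). The classic SERCA inhibitors of muscle, phospholamban (Pln) and sarcolipin (Sln), were low, at 5.1 to 5.3 and 4.5 to 5.2, and differed by -0.033 and -0.20. The buffer and chaperone genes Calr and Canx differed by 0.067 and 0.13. Dnajc10, an ER disulfide reductase known to act on SERCA2, read 10.2, 10.3 and 10.4 in wild type and 10.5, 10.6 and 10.5 in hIAPP_Tg (difference 0.23, SE 0.073, limma adjusted p = 0.552), and its 3 probe sets were all higher without overlap. The muscle SERCA gene Atp2a1 differed by -0.17.

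Channels, leak proteins and their partners had a median of 0.083 (32 measured, 23 above 0 and 7 below, none past the threshold). Fkbp1b, whose protein binds and steadies ryanodine receptors, was the only one without overlap, at 10.0, 10.0 and 9.9 against 9.8 on every hIAPP_Tg array (difference -0.17, SE 0.057, limma adjusted p = 0.557). Of all genes 3.22% were lower without overlap. Wfs1, the ER membrane protein gene mutated in Wolfram syndrome, overlapped widely, at 8.8, 9.2 and 9.1 against 8.8, 9.3 and 9.3, and sorcin (Sri), a calcium-binding regulator of release, differed by 0.17.

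In store-operated entry (13 measured, 6 above 0 and 5 below, median 0, none past the threshold) 2 genes were higher without overlap, against 4.48% of all genes. Stim2, the sensor relative of Stim1, read 8.4, 8.3 and 8.5 against 8.6, 8.7 and 8.6 (difference 0.23, SE 0.073), with a second probe set at 0.067. Saraf, which slows store-operated entry, was at 12.9 on each wild-type array and at 13.0, 13.1 and 13.1 on the hIAPP_Tg arrays (difference 0.17, SE 0.057). The limma adjusted p was 0.552 for Stim2 and 0.557 for Saraf. The channel gene Orai3 was at 7.7 on all 6 arrays.

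Pumps and exchangers of the plasma membrane and Golgi (9 measured, 7 above 0 and 2 below, median 0.067, none past the threshold) included Atp2b1, the plasma membrane calcium pump gene, at 9.5, 9.6 and 9.6 against 9.8, 9.7 and 9.8 (difference 0.20, SE 0.063, limma adjusted p = 0.552). Its other 2 probe sets overlapped between genotypes, and the lowest of its 3 differences was -0.067. For mitochondrial uptake and ER contacts (16 measured, 12 above 0 and 3 below, median 0.10, none past the threshold), Pacs2, a sorting protein gene of ER-mitochondria contacts, read 7.4, 7.4 and 7.2 against 7.6, 7.7 and 7.5 (difference 0.27), and Mcur1, a regulator of the uniporter, differed by 0.17. The uniporter gene Mcu itself was at 7.5 to 7.7 on all arrays.

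Enzymes that make and remove IP3 (20 measured, 9 above 0 and 7 below, median 0, none past the threshold) held the largest single difference of the lists. Plcg2, a phospholipase C gene of blood cells, was at 7.0 on each wild-type array and at 7.2, 7.5 and 7.4 on the hIAPP_Tg arrays (difference 0.37, SE 0.086, limma adjusted p = 0.471), on arrays where the macrophage marker mean was higher by 1.11. The part of that shift was not tested. Its relative Plcg1, made in most tissues, read 9.2, 9.1 and 9.1 against 9.0, 8.9 and 8.8 (difference -0.23). Its 3 probe sets ranged from -0.23 to 0.033, and 2 of them were lower without overlap. Inpp5a, which inactivates IP3, read 7.6, 7.7 and 7.5 against 7.9, 7.8 and 7.8 (difference 0.23).

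Genes that are induced when ER calcium or folding fails had a median of 0.10 (15 measured, 13 above 0 and 2 below, none past the threshold). Hspa5, the main ER chaperone, read 12.4, 12.6 and 12.6 against 12.6, 13.0 and 12.8 (difference 0.27, SE 0.12) and touched at 12.6. Without overlap were Atf3, a stress transcription factor, at 5.8, 5.5 and 5.8 against 6.1, 5.9 and 6.1 (difference 0.33), and Xbp1, at 12.3, 12.2 and 12.3 against 12.6, 12.4 and 12.4 (difference 0.20), where 3 further Xbp1 probe sets overlapped. Of all genes 4.48% were higher without overlap. The calcium depletion reporters Manf and Creld2 differed by 0.10 and 0.033. Calcineurin and NFAT genes, which respond to sustained cytosolic calcium, had a median of 0.017 (12 measured, 6 above 0 and 5 below, none past the threshold), and the calcineurin target Rcan1 differed by 0.17.

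**Figure D4:**
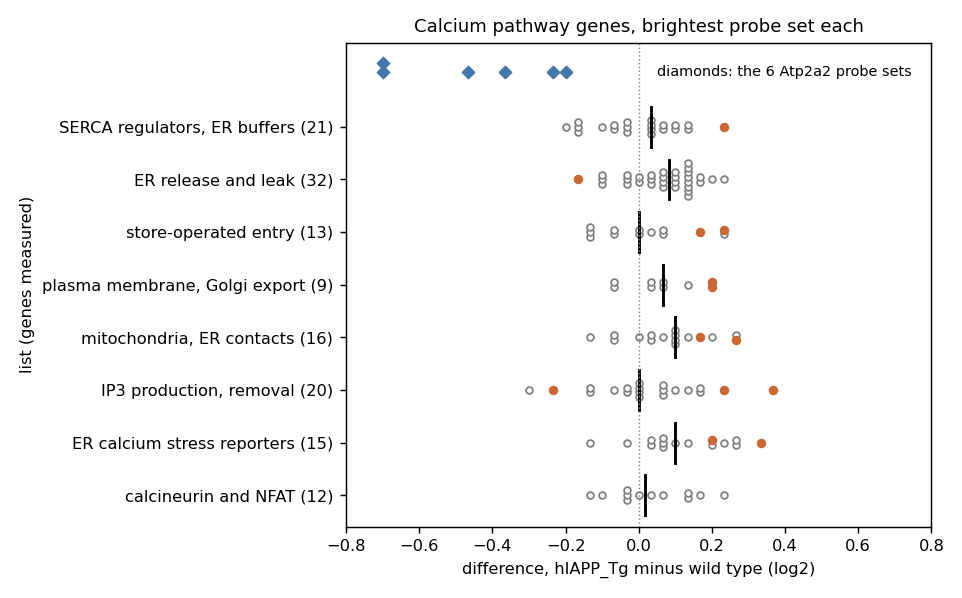
Difference between genotypes (horizontal axis, log2, hIAPP_Tg minus wild type) of 138 calcium pathway genes on 8 lists, 1 point per gene for its brightest probe set, with the median of each list as a black line, orange points where the genotypes do not overlap and blue diamonds for the 6 Atp2a2 probe sets. List medians lie between 0 and 0.10, and the lowest gene is at -0.30; the brightest Atp2a2 probe set is at -0.20 and the widest are at -0.70.

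The ER stress response element, a promoter motif through which ER chaperone genes are induced when the ER is disturbed, was looked for as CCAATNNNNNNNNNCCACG on both strands of the RefSeq promoter windows of GRCm38.p6 (250 bases before to 50 after the start; no other motif was searched). It was in 0.119% of 32851 windows, or 0.137% of 27025 genes, and in none of the 7 calcium genes above that have a window: Atp2a3, Atp2c1, Itpr2, Itpr3, Ryr2, Stim1 and Orai1. Atp2a2 itself had no window at hand, so its promoter was not searched. On the pathway lists the motif was in 7 of the 114 genes with a window (the other 32 were not matched), namely 4 of 13 stress reporters and 3 of 19 genes of the SERCA regulator and buffer list. The sites of 4 of them are shown because they are the reporters and calcium buffers named above; capitals mark the fixed letters of the motif, written 5′ to 3′ on the strand that holds it.
Hspa5 (chr2:34772025-34772043, plus strand): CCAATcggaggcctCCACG
Creld2 (chr15:88819520-88819538, minus strand): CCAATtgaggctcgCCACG
Calr (chr8:84847075-84847093, plus strand): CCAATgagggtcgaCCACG
Canx (chr11:50325800-50325818, minus strand): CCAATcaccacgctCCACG

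The 7 genes with the motif (these 4, Dnajc3, Hsp90b1 and Ero1b) differed by -0.033 to 0.27 between genotypes and all overlapped, Hspa5 having the largest difference. A match of letters is a description of the window and not evidence of a bound site.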

How the data were processed

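The authors deposited log2 expression values per probe set, made by RMA using affy, per the submitters' processing notes (no version is given there), and rounded to 0.1. They run from 2.9 to 15.1, and every array has a median of 5.7. RMA is meant to make the arrays alike in distribution, and differences of array values can be compressed at both ends of the scale. A further quantile normalization still moved differences of bright probe sets. That of Atp2a3 1421129_a_at went from -0.067 to -0.14 and that of Saraf from 0.17 to 0.12. The dimmer Atp2c1 1431196_at went from -0.10 to -0.089. The deposited arrays were thus not fully alike in distribution, and the cause was not tested. Precision is limited by the number of arrays, since there are no reads to count. Each labelling started from 150 ng of RNA per the labels.

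The 64 control probe sets were left out, and 45037 were fitted with limma 3.58.1 in R 4.3.3 (a linear model with moderated variances, two-sided test, without covariates, Benjamini-Hochberg adjustment over all). Probe sets were named from the platform annotation and a RefSeq gene table of GRCm38.p6, used for names only: 34945 had 1 symbol, 932 several and 9160 were unnamed here. The fit was tested on simulated data. The members, the 8 pathway and 10 marker lists and the tests were chosen with earlier results of these data known. From each pathway list up to 2 genes per direction were named, those with the largest difference among genes above the median whose genotypes did not overlap; the choice of other list genes in the text came after seeing their values. Alternative settings were quantile normalization, centring on the median, filtering dim probe sets in 2 ways, 2 other priors, array weights, no moderation, averaged probe sets, the acinar marker mean as a covariate and leaving out each array.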

Additional observations from a re-analysis of the deposited data

How the results depend on the processing

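Of the 16 alternatives, 7 (median centring, the filters, the priors, the ordinary linear model and averaged probe sets) cannot move the Atp2a2 difference of -0.44 over its 6 probe sets and say nothing of its stability. Under the other 9 it was -0.49 with quantile normalization, -0.41 with array quality weights or the acinar covariate, and -0.49 to -0.40 with each array left out in turn. The count of the other 20 member probe sets past an adjusted p of 0.05 in limma was 0 in every setting, as was that of the 138 pathway genes. Atp2a2 probe set 1437797_at passed with quantile normalization, with the filter at the median, with the robust prior, with array quality weights and in the ordinary linear model, and in no other setting; since Atp2a2 was selected on this comparison, this is no evidence for its difference. Over all probe sets 13 passed, against 30 with quantile normalization, 51 with the robust prior, 26 with array quality weights, 128 in the ordinary linear model, 4 with the acinar covariate and 1 to 4 with each array left out; the cause was not tested. With quantile normalization, array quality weights or the acinar covariate, 78 of 78 member probe set differences stayed within 1 SD of the reported value. For many of them 1 SD is wider than the difference itself, so this count is no evidence of stability. With the acinar covariate Atp2a2 1416551_at went from -0.23 to -0.14, and Atp2c1 1442742_at from -0.033 to 0.039. Leaving out 1 of 3 arrays cannot move a difference by 1 SD. With 3 arrays per genotype and values in steps of 0.1, differences of about a step cannot be told from rounding, and probe sets near the floor (Ryr2, and the dimmest of Itpr2 and Atp2c1) may hide a difference. No paired analysis was possible because the genotypes share no replicate number.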
